A study of Mus musculus with 9 samples.

Results

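Integrins and cadherins are the surface receptors with which mouse embryonic stem cells hold on to their substrate and to each other, and their messenger RNA was measured here in 3 culture media. The group was chosen by gene symbol: every symbol that begins with Itga, and every symbol made of Itgb or Cdh followed only by a number. This gave 49 genes of 24819 in the table, namely 18 alpha integrin subunits, 8 beta integrin subunits and 23 numbered cadherins. Of the cadherins, 5 are type I classical cadherins (Cdh1, Cdh2, Cdh3, Cdh4 and Cdh15) and 13 are type II classical cadherins. The other 5 (Cdh13, Cdh16, Cdh17, Cdh23 and Cdh26) share the number series but are not classical cadherins, so the whole set is called numbered cadherins below.

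An integrin is a dimer of 1 alpha and 1 beta subunit that binds extracellular matrix, or a partner on another cell, and links it through talin and kindlin to actin. Classical cadherins bind their like on a neighbouring cell and are tied to actin through beta-catenin, p120-catenin and alpha-catenin. In mouse embryonic stem cells, E-cadherin (Cdh1) holds colonies together, and dimers built on integrin beta 1 (Itgb1) attach the cells to laminin and fibronectin.

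All cells were of the E14 line, an established mouse embryonic stem cell line, and all were plated on gelatin, a denatured collagen. They were kept in expanded potential stem cell medium (EPSCM), in N2B27, a medium without serum, to which LIF and 2i were added (2iLIF), or in serum medium with LIF (ES). LIF is leukemia inhibitory factor, and 2i is a pair of inhibitors, of MEK and of GSK3. Each medium had 3 libraries of polyadenylated RNA, and all 9 come from 1 cell line. Whether the 3 libraries were grown as separate cultures is not stated in the labels, so a p-value here weighs differences against a library-to-library spread that may be technical.

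The values are FPKM, in which fragment numbers are divided by the length of the transcript and by the size of the library, so that levels of different genes can be set side by side. Summed over genes, a library held 546636 to 600728 FPKM. Depth was estimated from the steps between low values. A single fragment from 1 kb of transcript then equals 0.0351 to 0.0481 FPKM. In each medium 1 library stood apart from the other pair (EPSCM replicate 2, 2iLIF replicate 1 and ES replicate 1), along the third principal component, which held 6.46% of the variance. That library was the highest of its medium in all 3 media for 12 of the 16 tested members, against 38.4% of all tested genes. It was the lowest in all 3 media for Itga6 and Itgb1, against 25.3% of all tested genes. Pou5f1, Sox2, Nanog, Zfp42 and Dppa5a, markers of embryonic stem cells, passed the filter on low values, while Fut4 stayed under 1 FPKM in every library. Pou5f1 was called lower in EPSCM against ES (-1.11 ± 0.13), and Zfp42 was called lower in EPSCM against ES (-1.70 ± 0.09) and against 2iLIF (-1.30 ± 0.09). Sox2, Nanog and Dppa5a were called in no comparison and did not share 1 direction. EPSCM against ES gave -0.28 ± 0.06, -0.14 ± 0.05 and 0.19 ± 0.13 for them, and EPSCM against 2iLIF 0.21 ± 0.06, -0.55 ± 0.05 and -0.29 ± 0.13. The part of these markers in the levels of the members was not tested. In bulk RNA, fewer cells of a type and less RNA per cell cannot be told apart.

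Differences are on the log2(FPKM + 1) scale with their SE, from 1 limma model over the 9 libraries, which understates the change of low genes. The words rose, fell and called are kept for a Benjamini-Hochberg adjusted p under 0.05 together with a difference of 1 or more in size. To be tested, a gene needed 1 FPKM or more in 3 libraries or more, which left 12330. Of the 49 members, 16 passed: 7 alpha subunits, 5 beta subunits and 4 cadherins. Cdh22 and Itga7 passed through their EPSCM libraries alone. Of the other 33 members, 32 stayed under 1 FPKM in every library and 15 of these under 0.1 FPKM. Itga2b, the platelet alpha subunit, reached 1 FPKM in 1 EPSCM library.

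**Figure D1:**
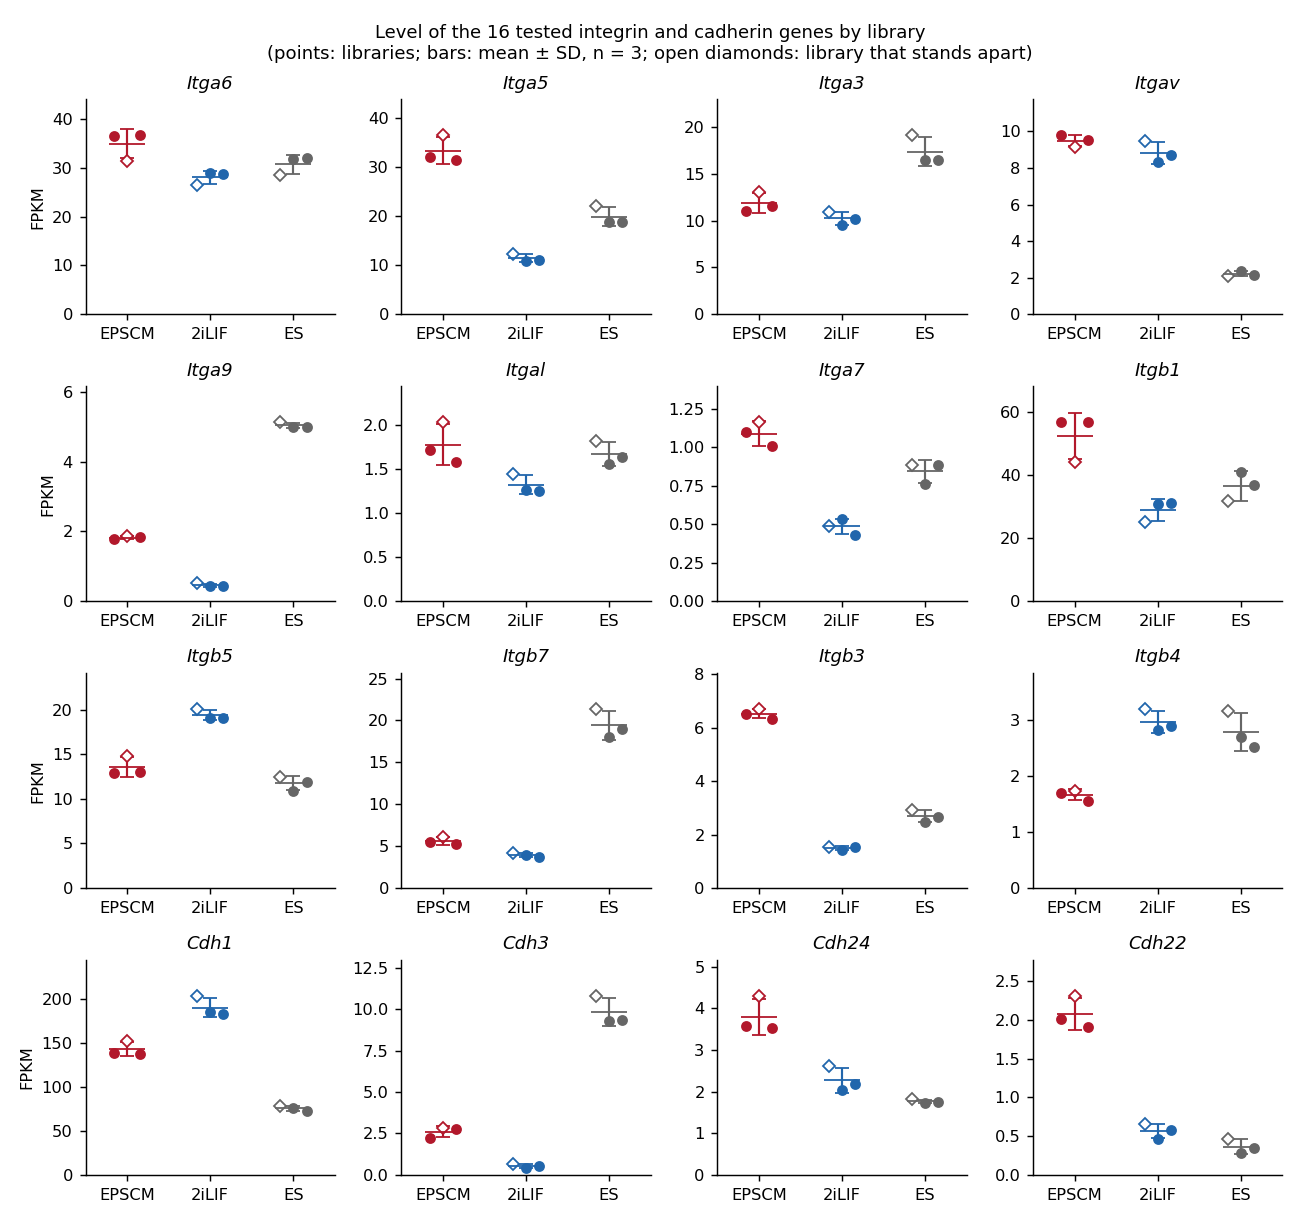
FPKM of the 16 tested members in each library of EPSCM, 2iLIF and ES, with a separate vertical axis for each gene that starts at 0. Points are libraries, horizontal bars with whiskers are the mean ± SD of 3 libraries, and open diamonds are the library of each medium that stands apart. Cdh3, Itga9 and Itgb7 are high in ES, Itgav is low in ES, and Itgb3 and Itga5 are high in EPSCM.

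The laminin and fibronectin receptors came first among the alpha subunits. Itga6, which pairs with Itgb1 or Itgb4 to bind laminin, had the highest mean of all alpha subunits in each medium. It measured 36.6, 31.5 and 36.7 FPKM in EPSCM, 26.6, 29.1 and 28.7 FPKM in 2iLIF, and 28.5, 31.9 and 32.0 FPKM in ES. These ranges lie close together, and none of its 3 comparisons was called. The difference was 0.18 ± 0.08 for EPSCM against ES, 0.30 ± 0.08 for EPSCM against 2iLIF and -0.13 ± 0.08 for 2iLIF against ES.

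Itga5, the alpha subunit of the main fibronectin receptor, stood out in EPSCM. Its level was 32.0, 36.4 and 31.4 FPKM in EPSCM, 12.3, 10.7 and 11.0 FPKM in 2iLIF, and 22.0, 18.7 and 18.8 FPKM in ES. The 3 media did not overlap. Itga5 rose in EPSCM against 2iLIF, by 1.47 ± 0.09 (limma adjusted p = 7.56e-07). The other comparisons fell short of the fold limit, at 0.72 ± 0.09 for EPSCM against ES and -0.75 ± 0.09 for 2iLIF against ES. In EPSCM the Itga5 and Itga6 libraries overlapped, so their order is not settled there, while in 2iLIF and ES every Itga6 value lay above every Itga5 value.

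Itga3, which pairs with Itgb1 as a receptor for laminins, ran the other way between EPSCM and ES. It stood at 11.0, 13.1 and 11.6 FPKM in EPSCM, 11.0, 9.60 and 10.2 FPKM in 2iLIF, and 19.2, 16.5 and 16.5 FPKM in ES. All ES values were above the other 6, and the EPSCM and 2iLIF values did not overlap, since the highest 2iLIF value (10.97 FPKM) was just under the lowest EPSCM value (11.00 FPKM). No comparison of Itga3 was called (-0.51 ± 0.09 for EPSCM against ES, 0.19 ± 0.09 for EPSCM against 2iLIF and -0.71 ± 0.09 for 2iLIF against ES). The ratio of Itga5 to Itga3 was 2.71 to 2.91 in EPSCM, 1.08 to 1.12 in 2iLIF and 1.13 to 1.15 in ES.

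Relative to ES, Itgav and Itga9 moved in opposite directions. Itgav, the alpha subunit shared by the receptors for vitronectin, osteopontin and Mfge8, measured 9.79, 9.17 and 9.51 FPKM in EPSCM, 9.50, 8.32 and 8.69 FPKM in 2iLIF, and 2.09, 2.39 and 2.17 FPKM in ES. The ES libraries lay far below the other 6, while EPSCM and 2iLIF overlapped. Itgav rose in EPSCM against ES by 1.71 ± 0.07 (limma adjusted p = 7.07e-08) and in 2iLIF against ES by 1.61 ± 0.07 (limma adjusted p = 9.15e-08). Between EPSCM and 2iLIF it differed by 0.09 ± 0.07 (adjusted p = 0.239).

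Itga9, which pairs with Itgb1 and binds tenascin and osteopontin, had its highest values in ES. It measured 1.78, 1.86 and 1.83 FPKM in EPSCM, 0.506, 0.442 and 0.426 FPKM in 2iLIF, and 5.14, 5.00 and 5.00 FPKM in ES. The 3 media were separated with no overlap. Itga9 fell in EPSCM against ES (-1.10 ± 0.05, limma adjusted p = 1.43e-07) and in 2iLIF against ES (-2.05 ± 0.05, limma adjusted p = 5.32e-09). EPSCM against 2iLIF gave 0.95 ± 0.05, short of the fold limit, and 1.79 with a pseudocount of 0.1 in place of 1. The ratio of Itgav to Itga9 was 4.92 to 5.51 in EPSCM, 18.8 to 20.4 in 2iLIF and 0.407 to 0.477 in ES, so in ES Itga9 exceeded Itgav.

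The other tested alpha subunits were low. Itgal, the alpha subunit of the leukocyte receptor LFA-1, measured 1.73, 2.04 and 1.58 FPKM in EPSCM, 1.45, 1.26 and 1.26 FPKM in 2iLIF, and 1.83, 1.56 and 1.65 FPKM in ES. Itga7, a laminin receptor subunit known from muscle, was at 1.09 ± 0.0787 FPKM in EPSCM, 0.485 ± 0.0511 in 2iLIF and 0.845 ± 0.0740 in ES (SD, n = 3 each). Neither was called in any comparison, except that with a pseudocount of 0.1 Itga7 passed the limit in EPSCM against 2iLIF (1.02, beside 0.49 ± 0.06). Over the alternative settings EPSCM against ES ran from -0.17 to 0.11 for Itgal and from -0.06 to 0.33 for Itga7, so neither had a settled direction there.

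The 4 alpha subunits that bind native collagen stayed under 1 FPKM in cells that all grew on gelatin. Itga1, Itga2 and Itga11 were near the lower limit, between 0 and 0.102 FPKM. Itga10 ranged from 0.318 to 0.526 FPKM over the 9 libraries. About 34.5% of its exon bases are shared with an annotated transcript on the same strand, so even this value is uncertain. Among leukocyte subunits, Itgad and Itgax did not exceed 0.00816 FPKM, and Itgam and Itgae were highest in EPSCM, at 0.471 ± 0.0392 and 0.760 ± 0.0853 FPKM. In 2iLIF these were at 0.179 ± 0.0267 and 0.303 ± 0.0386 FPKM, and in ES at 0.149 ± 0.0400 and 0.346 ± 0.0316 FPKM. Itgam shares 70.0% of its exon bases with another annotated gene on its strand. Itga2b was at 0.985, 1.12 and 0.842 FPKM in EPSCM, 0.327, 0.220 and 0.183 FPKM in 2iLIF, and 0.474, 0.327 and 0.361 FPKM in ES, with all EPSCM values on top. Itga8, the receptor subunit for nephronectin known from kidney development, ranged from 0.0584 to 0.233 FPKM.

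Summed over the 18 alpha subunits, the level was 97.5 ± 1.03 FPKM in EPSCM, 62.3 ± 0.966 in 2iLIF and 79.5 ± 1.70 in ES (SD, n = 3 each). Itga5 supplied 34.1 ± 2.43% of that sum in EPSCM, 18.2 ± 1.02% in 2iLIF and 24.9 ± 1.84% in ES. Itgav supplied 9.74 ± 0.406% in EPSCM, 14.2 ± 0.750% in 2iLIF and 2.79 ± 0.240% in ES.

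**Figure D2:**
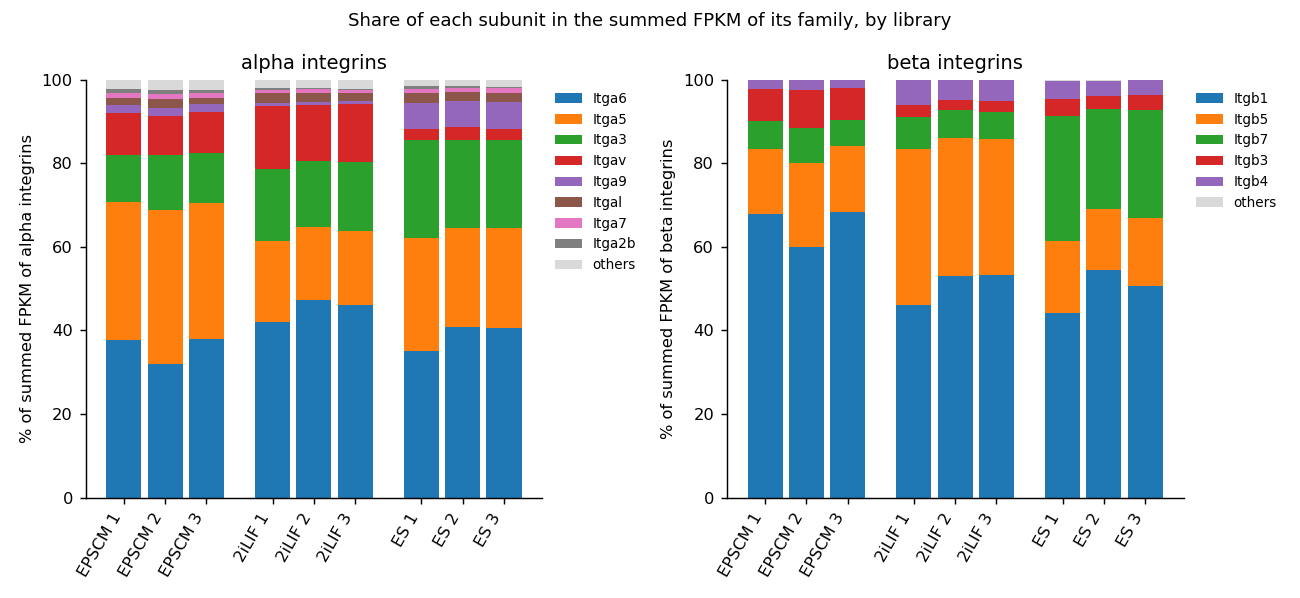
Stacked bars give, for each library, the percentage that each subunit supplied of the summed FPKM of the alpha subunits (left) and of the beta subunits (right); subunits that never reached 1% are joined as others. Itgb7 fills 6.29% to 8.35% of the beta bars in EPSCM and 24.0% to 29.8% in ES, and Itgav fills 9.29% to 10.1% of the alpha bars in EPSCM and 2.57% to 3.05% in ES.

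Among the beta subunits, Itgb1, the common partner of most matrix-binding alpha subunits, led in every library. It measured 56.7, 43.9 and 56.6 FPKM in EPSCM, 24.9, 30.7 and 31.0 FPKM in 2iLIF, and 31.6, 40.9 and 36.9 FPKM in ES. EPSCM lay above both other media, and the ranges of 2iLIF and ES did not overlap, although 31.0 and 31.6 FPKM nearly met. No comparison was called: EPSCM against ES gave 0.51 ± 0.13, EPSCM against 2iLIF 0.83 ± 0.13 and 2iLIF against ES -0.33 ± 0.13. Without the 3 libraries that stand apart, which are the lowest of their media for this gene, these differences were 0.53, 0.85 and -0.32.

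Itgb7, the beta subunit known from lymphocytes, where it pairs with Itga4 or Itgae, came next to Itgb1 in ES. It was at 5.53, 6.13 and 5.21 FPKM in EPSCM, 4.23, 3.89 and 3.75 FPKM in 2iLIF, and 21.4, 18.01 and 18.9 FPKM in ES. The 3 media did not overlap. Itgb7 fell in EPSCM against ES (-1.62 ± 0.08, limma adjusted p = 2.72e-07) and in 2iLIF against ES (-2.04 ± 0.08, limma adjusted p = 7.87e-08). EPSCM against 2iLIF gave 0.42 ± 0.08, short of the fold limit.

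The alpha partners of Itgb7 did not share its level. Itga4 was at 0.316 ± 0.0522 FPKM in EPSCM, 0.221 ± 0.0212 in 2iLIF and 0.137 ± 0.0276 in ES (SD, n = 3 each), and so was lowest in ES, where Itgb7 was highest. In ES, Itgb7 exceeded Itga4 by a ratio of 110 to 197 and Itgae by a ratio of 49.6 to 65.1. In the same way Itgal was measured beside almost no Itgb2, its partner, which did not exceed 0.215 FPKM. Of 9 leukocyte markers, 5 stayed under 0.1 FPKM in every library, Tyrobp was at 0 and Ptprc reached 0.00972 FPKM in 1 ES library. The whole marker list summed to 55.5 to 63.5 FPKM in EPSCM, 105 to 111 FPKM in 2iLIF and 107 to 119 FPKM in ES, nearly all of it from Laptm5 and Cd68. Coro1a was at 2.88 ± 0.529 FPKM in EPSCM, 0.740 ± 0.133 in 2iLIF and 4.03 ± 0.00247 in ES. Cd3e was at 1.49 ± 0.229, 2.68 ± 0.358 and 2.91 ± 0.807 FPKM in the same media. By mean, Coro1a and Cd68 had the order of media of Itgb7, and Laptm5 and Cd3e did not. The part of such cells in the levels of the members was not tested.

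Itgb3 and Itgb5, which pair with Itgav, were high in different media. Itgb3 measured 6.53, 6.70 and 6.35 FPKM in EPSCM, 1.53, 1.42 and 1.53 FPKM in 2iLIF, and 2.90, 2.46 and 2.68 FPKM in ES. Every EPSCM value was above every value of the other media. It rose in EPSCM against 2iLIF by 1.59 ± 0.06 (limma adjusted p = 6.12e-08) and in EPSCM against ES by 1.03 ± 0.06 (limma adjusted p = 6.88e-07). The call against ES sat at the limit and was lost without ES replicate 2 (0.99), with quantile normalization (0.84) and with libraries scaled to the same median ratio (0.94).

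Itgb5 measured 12.9, 14.9 and 12.97 FPKM in EPSCM, 20.1, 19.1 and 19.1 FPKM in 2iLIF, and 12.4, 10.9 and 11.9 FPKM in ES. The 2iLIF values were the highest, and EPSCM and ES were separated by a small gap. None of its comparisons was called (0.20 ± 0.07 for EPSCM against ES, -0.49 ± 0.07 for EPSCM against 2iLIF and 0.68 ± 0.07 for 2iLIF against ES). Itgb4, the laminin-binding partner of Itga6 in hemidesmosomes, was lowest in EPSCM, at 1.66 ± 0.0972 FPKM, against 2.97 ± 0.197 in 2iLIF and 2.79 ± 0.338 in ES, and was not called. Itgb6 and Itgb8, which also pair with Itgav, were at or near 0: Itgb6 had a value above 0 in 1 library (0.0114 FPKM) and Itgb8 was listed at 0 in all 9.

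The beta subunits summed to 79.9 ± 5.58 FPKM in EPSCM, 56.7 ± 2.40 in 2iLIF and 73.2 ± 1.73 in ES (SD, n = 3 each), and the EPSCM and ES libraries overlapped in this sum while its make-up differed. Itgb7 held 7.09 ± 1.10% of the sum in EPSCM and 26.6 ± 2.96% in ES, whereas Itgb1 held 65.4 ± 4.82% in EPSCM and 49.7 ± 5.23% in ES. In 2iLIF, Itgb5 held 34.3 ± 2.53%.

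The RefSeq table of promoter sequences (build GRCm38.p6), matched by symbol, held 31 of the 49 members and 9 of the 16 tested ones. Shown are the 250 bases before the annotated start of the 4 called integrin genes in the table, on the strand of the gene: Itga9 and Itgb7, which were both highest in ES, Itgav, which was lowest in ES, and Itga5, which was highest in EPSCM. Capitals mark matches, on either strand, to the E-box CAGGTG, read as CACCTG on the other strand and known as a site of the Snai and Zeb repressors, and to the GC box GGGCGG, read as CCGCCC on the other strand and known as a site of Sp factors.
Itga9, chr9:118711442-118711691, plus strand: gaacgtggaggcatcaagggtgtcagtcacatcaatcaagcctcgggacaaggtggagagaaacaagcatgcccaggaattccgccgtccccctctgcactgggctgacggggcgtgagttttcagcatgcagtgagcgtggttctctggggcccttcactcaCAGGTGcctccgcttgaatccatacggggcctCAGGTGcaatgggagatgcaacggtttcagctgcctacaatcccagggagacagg
Itgb7, chr15:102231936-102232185, minus strand: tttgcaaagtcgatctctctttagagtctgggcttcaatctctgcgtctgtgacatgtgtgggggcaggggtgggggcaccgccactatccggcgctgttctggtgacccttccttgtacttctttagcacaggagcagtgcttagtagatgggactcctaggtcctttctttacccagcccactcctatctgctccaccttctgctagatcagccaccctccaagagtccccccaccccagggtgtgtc
Itgav, chr2:83724147-83724396, plus strand: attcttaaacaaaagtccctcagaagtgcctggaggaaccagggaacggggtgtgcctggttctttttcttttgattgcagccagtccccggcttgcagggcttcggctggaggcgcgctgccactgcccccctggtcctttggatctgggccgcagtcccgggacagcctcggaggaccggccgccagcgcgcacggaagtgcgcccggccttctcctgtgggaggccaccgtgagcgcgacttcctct
Itga5, chr15:103366792-103367041, minus strand: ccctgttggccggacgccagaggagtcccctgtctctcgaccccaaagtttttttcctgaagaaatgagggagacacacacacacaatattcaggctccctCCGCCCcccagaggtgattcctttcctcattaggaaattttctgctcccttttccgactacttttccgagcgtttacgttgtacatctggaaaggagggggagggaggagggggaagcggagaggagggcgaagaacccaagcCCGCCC

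Itga9 held 2 E-box matches and no GC box, Itga5 held 2 GC boxes and no E-box, and the windows of Itgb7 and Itgav held neither. Over the 32851 windows of the table, 17.2% had an E-box match and 32.7% a GC box. Matches to the AP-1 motif TGANTCA (6.75% of all windows) or to the TCF motif CTTTGA, with TCAAAG as its other strand (13.8% of all windows), were in none of the 4. A match is a run of letters and not a shown binding site, and no match says only that these letters are not in the window.

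Cdh1, or E-cadherin, was the most abundant member of the whole set in every library. It measured 139, 153 and 138 FPKM in EPSCM, 204, 185 and 183 FPKM in 2iLIF, and 78.8, 76.3 and 72.8 FPKM in ES. The 3 media were clearly apart, in the order 2iLIF, EPSCM and ES. Cdh1 rose in 2iLIF against ES by 1.32 ± 0.07 (limma adjusted p = 2.63e-07). EPSCM against ES, at 0.91 ± 0.07, fell short of the fold limit, which it passed after quantile normalization (1.08), and EPSCM against 2iLIF was at -0.41 ± 0.07.

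Cdh3, or P-cadherin, known from basal epithelia and placenta, lies next to Cdh1 on chromosome 8 and showed another order. Its level was 2.24, 2.85 and 2.75 FPKM in EPSCM, 0.665, 0.392 and 0.546 FPKM in 2iLIF, and 10.8, 9.29 and 9.33 FPKM in ES. No library of a medium overlapped with another medium. It was the only member called in all 3 comparisons: it fell in EPSCM against ES (-1.58 ± 0.10, limma adjusted p = 8.08e-07), rose in EPSCM against 2iLIF (1.23 ± 0.10, limma adjusted p = 4.59e-06) and fell in 2iLIF against ES (-2.82 ± 0.10, limma adjusted p = 3.19e-08). The call against 2iLIF was lost after quantile normalization (0.89). The ratio of Cdh1 to Cdh3 was 50.3 to 62.2 in EPSCM, 307 to 473 in 2iLIF and 7.30 to 8.21 in ES. Cdh1 made up 93.3 ± 0.190% of the summed FPKM of the 23 numbered cadherins in EPSCM, 97.5 ± 0.248% in 2iLIF and 84.2 ± 0.515% in ES.

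**Figure D3:**
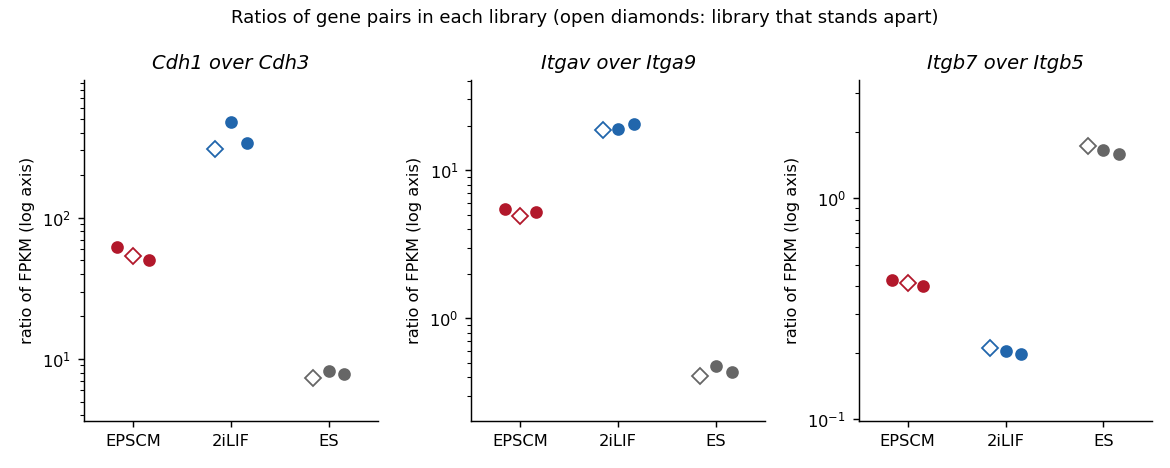
Ratio of the FPKM of Cdh1 to Cdh3, of Itgav to Itga9 and of Itgb7 to Itgb5 in each library of EPSCM, 2iLIF and ES, on log axes; open diamonds are the library of each medium that stands apart. In all 3 panels the media form groups without overlap, for example 50.3 to 62.2 in EPSCM and 7.30 to 8.21 in ES for Cdh1 to Cdh3.

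N-cadherin (Cdh2), the classical cadherin of neural and mesenchymal cells, stayed under 1 FPKM. It was at 0.157, 0.240 and 0.244 FPKM in EPSCM, 0.842, 0.549 and 0.817 FPKM in 2iLIF, and 0.378, 0.466 and 0.401 FPKM in ES, so EPSCM was lowest and 2iLIF highest. Cdh4, or R-cadherin, ranged from 0.354 to 0.667 FPKM over the 9 libraries. Cdh15, or M-cadherin of muscle, was at 0.349, 0.363 and 0.428 FPKM in EPSCM, at 0.0202, 0.0100 and 0.0352 FPKM in 2iLIF, and at 0.171, 0.133 and 0.131 FPKM in ES. The 2iLIF values of Cdh15 rest on very few fragments.

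Of the 13 type II cadherins, only Cdh24 and Cdh22 were tested. Cdh24, a broadly expressed type II cadherin, measured 3.57, 4.30 and 3.53 FPKM in EPSCM, 2.61, 2.03 and 2.17 FPKM in 2iLIF, and 1.82, 1.73 and 1.75 FPKM in ES, with no overlap between media and no call (0.79 ± 0.09 for EPSCM against ES, 0.55 ± 0.09 for EPSCM against 2iLIF and 0.24 ± 0.09 for 2iLIF against ES). With a pseudocount of 0.1 EPSCM against ES reached 1.06 and was called. Cdh22, known from the brain and pituitary, measured 2.01, 2.31 and 1.92 FPKM in EPSCM, 0.656, 0.468 and 0.582 FPKM in 2iLIF, and 0.466, 0.279 and 0.344 FPKM in ES. Its EPSCM values lay well above the rest. Since it was tested only because of these EPSCM values, its differences are given as a description. EPSCM against ES was at 1.18 ± 0.08, past the limit. EPSCM against 2iLIF, at 0.97 ± 0.08, was just short of the limit and passed it without EPSCM replicate 3 (1.01), without 2iLIF replicate 1 (1.01) and with a pseudocount of 0.1 (1.71).

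The other 11 type II cadherins did not exceed 0.212 FPKM in any library. VE-cadherin (Cdh5), the cadherin of endothelium, was at 0.0244 ± 0.0205 FPKM in EPSCM, 0.0472 ± 0.0197 in 2iLIF and 0.180 ± 0.0269 in ES (SD, n = 3 each). Of 8 endothelial and platelet markers, 5 stayed under 1 FPKM and Emcn was at 0. Their sum of 65.0 to 69.4 FPKM in EPSCM, 35.4 to 37.4 in 2iLIF and 23.2 to 24.6 in ES came mostly from Pecam1, which embryonic stem cells also express. This sum joins genes of different order. Cldn5 was highest in EPSCM, like Pecam1, while Kdr and Pf4 were highest in 2iLIF. Tie1 was at 0.0865 ± 0.0306 FPKM in EPSCM, 0.157 ± 0.0505 in 2iLIF and 0.486 ± 0.0349 in ES, the order of Cdh5. Tek was at 2.11 ± 0.197, 1.78 ± 0.0894 and 2.97 ± 0.337 FPKM in the same media. Of the 5 numbered cadherins outside the classical group, Cdh23, known from the links between hair cell stereocilia, was the highest, at 0.316 ± 0.0157 FPKM in EPSCM, 0.0408 ± 0.00804 in 2iLIF and 0.387 ± 0.00876 in ES. Of 8 fibroblast markers, 6 stayed under 1 FPKM, and the list, led by Thy1, summed to 6.66 to 8.25 FPKM in EPSCM, 0.783 to 0.962 in 2iLIF and 14.7 to 16.8 in ES. Thy1 alone was at 6.02 ± 0.762 FPKM in EPSCM, 0.410 ± 0.0412 in 2iLIF and 14.4 ± 1.12 in ES. Col1a1 had the same order by mean. Fbn1 did not, at 0.976 ± 0.0537, 0.209 ± 0.0274 and 0.771 ± 0.0171 FPKM in the same media. The part of such cells in the levels of the members was not tested.

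Counted over the tested members, EPSCM against ES had 3 of 16 higher (Itgav, Itgb3 and Cdh22) and 3 lower (Itga9, Itgb7 and Cdh3), beside 11.7% higher and 7.97% lower (19.7% in all) among the 12330 tested genes. Cdh22 had entered the test through its EPSCM libraries alone, so its place in that count is a description. Among all called genes of this comparison 59.4% were higher, against 49.5% after quantile normalization and 50.02% with libraries scaled to the same median ratio. EPSCM against 2iLIF had 3 of 16 higher (Itga5, Itgb3 and Cdh3) and none lower, beside 10.1% higher and 5.91% lower (16.1% in all). Among all called genes of that comparison 63.2% were higher, and 52.8% after quantile normalization. 2iLIF against ES had 2 of 16 higher (Itgav and Cdh1) and 3 lower (Itga9, Itgb7 and Cdh3), beside 7.62% higher and 7.12% lower (14.7% in all). With 16 members such counts do not set the group apart from the background. The comparisons share libraries, so a gene that recurs in them is not seen independently.

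The median difference of the tested members was 0.19 for EPSCM against ES, beside 0.09 over all tested genes, 0.45 for EPSCM against 2iLIF, beside 0.03, and -0.26 for 2iLIF against ES, beside 0.03. Ranked by mean, 9 of the 16 were highest in EPSCM (39.0% of all tested genes were), 3 in 2iLIF (29.8%) and 4 in ES (31.2%). The lowest mean was in 2iLIF for 10 members (30.0% of all tested genes), in EPSCM for Itgb4 alone (31.8%) and in ES for 5 (38.2%). In all, 8 tested members were called in at least 1 comparison and 8 in none. Cdh22, among the 8 called, and Itga7 are both among the 9 highest in EPSCM, the medium through which they came to be tested. Their part in these ranks, and in the median differences of both EPSCM comparisons, is thus a description.

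**Figure D4:**
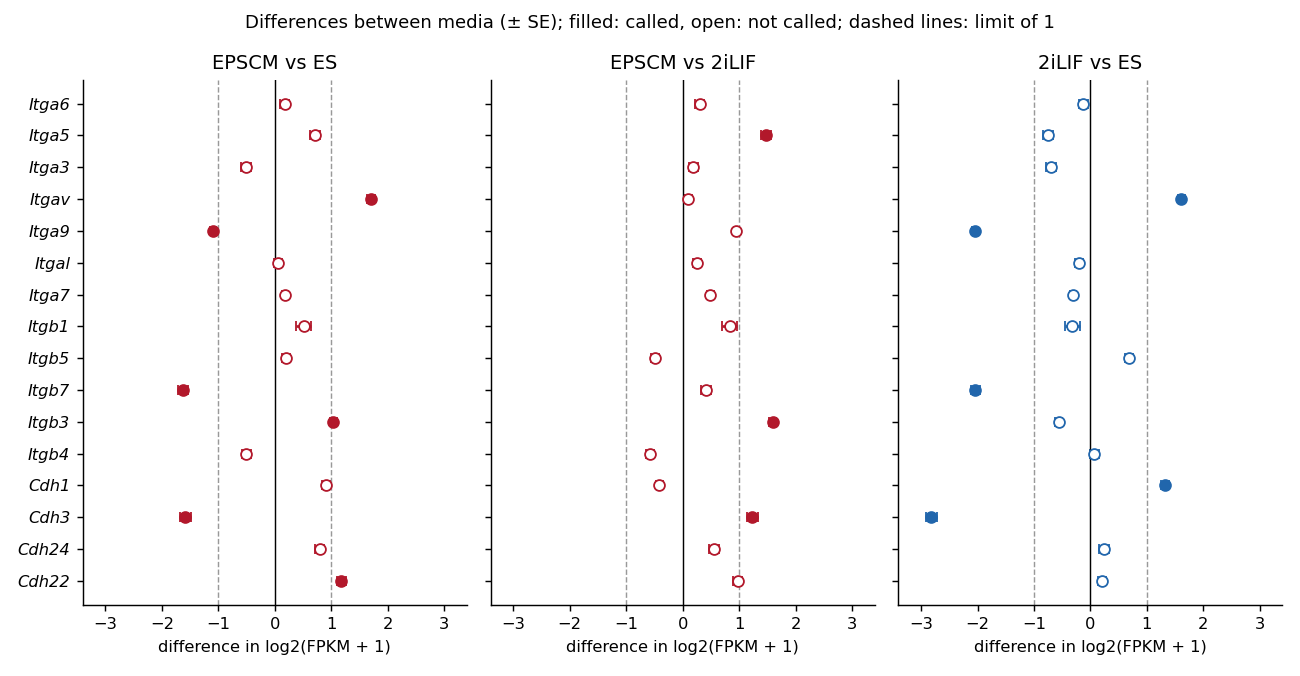
Difference in log2(FPKM + 1) ± SE of the 16 tested members for each pair of media. Filled points were called, open points were not, and dashed lines mark the limit of 1; Cdh3 is filled in all 3 panels, and its largest difference is -2.82, in 2iLIF against ES.

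The proteins that join cadherins to actin were measured next. Of 15 tested genes of the cadherin and catenin complex, 3 rose and 2 fell in EPSCM against ES, beside 11.7% higher and 7.97% lower among all tested genes. None rose and 2 fell in EPSCM against 2iLIF, beside 10.1% and 5.91%. In 2iLIF against ES 2 rose and 1 fell, beside 7.62% and 7.12%. Nectin2 made 1 that rose in EPSCM against 2iLIF without EPSCM replicate 1 (1.02), without 2iLIF replicate 1 (1.02) or after quantile normalization (1.04). The core catenins were called in no comparison. Ctnnb1, or beta-catenin, was at 280.0 ± 4.87 FPKM in EPSCM, 312 ± 6.55 in 2iLIF and 310 ± 6.29 in ES, and Ctnna1, or alpha-catenin, at 154 ± 2.57, 165 ± 0.848 and 189 ± 5.05 FPKM in the same media. Ctnnd1, or p120-catenin, was at 40.1 ± 3.30 FPKM in EPSCM, 63.2 ± 4.50 in 2iLIF and 52.5 ± 4.36 in ES.

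Jup, or plakoglobin, the relative of beta-catenin that also serves desmosomes, was the exception. It was at 10.2 ± 1.67 FPKM in EPSCM, 63.1 ± 7.55 in 2iLIF and 39.7 ± 4.63 in ES, and it fell in EPSCM against ES (-1.86 ± 0.13) and against 2iLIF (-2.52 ± 0.13). Lima1, or EPLIN, which ties alpha-catenin to actin, rose in EPSCM against ES (2.00 ± 0.05) and in 2iLIF against ES (2.14 ± 0.05). Arvcf, a relative of p120-catenin, rose in EPSCM against ES (1.49 ± 0.11). Plekha7 did so by 1.01 ± 0.08, a call at the limit that 7 other settings ended, among them the fits without EPSCM replicate 2 (0.95), without ES replicate 2 (0.97) and without ES replicate 3 (1.00). Ctnnal1, an alpha-catenin-like protein, fell in EPSCM against ES (-1.34 ± 0.06) and in 2iLIF against ES (-1.37 ± 0.06). Ctnnd2, a p120 relative known from neurons, reached 1 FPKM in 2iLIF libraries alone, so its calls are a description: it was higher in 2iLIF against ES (1.92 ± 0.06) and lower in EPSCM against 2iLIF (-1.47 ± 0.06).

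Desmosomes, which use their own cadherins, had 5 tested genes. Of these, 1 rose and 1 fell in EPSCM against ES, beside 11.7% higher and 7.97% lower among all tested genes. In EPSCM against 2iLIF 2 rose and 2 fell, beside 10.1% and 5.91%. In 2iLIF against ES 2 rose and 1 fell, beside 7.62% and 7.12%. Dsp, or desmoplakin, was at 16.7 ± 0.818 FPKM in EPSCM, 7.15 ± 0.353 in 2iLIF and 2.02 ± 0.224 in ES, and rose in EPSCM against ES (2.55 ± 0.07), in EPSCM against 2iLIF (1.12 ± 0.07) and in 2iLIF against ES (1.43 ± 0.07). Dsg2, or desmoglein 2, was at 16.2 ± 0.865 FPKM in EPSCM, 38.8 ± 3.68 in 2iLIF and 9.96 ± 0.791 in ES. It fell in EPSCM against 2iLIF (-1.20 ± 0.09) and rose in 2iLIF against ES (1.86 ± 0.09). Pkp2, or plakophilin 2, rose in EPSCM against 2iLIF (1.69 ± 0.06) and fell in 2iLIF against ES (-1.66 ± 0.06). Jup, given above, belongs to this list too.

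Transcription factors known to repress Cdh1 had 4 tested genes of 7, and 1 was called higher in each EPSCM comparison while 1 was called lower in 2iLIF against ES. Among all tested genes 11.7% were higher in EPSCM against ES, 10.1% were higher in EPSCM against 2iLIF and 7.12% were lower in 2iLIF against ES. Snai1 was at 3.14 ± 0.427 FPKM in EPSCM, 4.52 ± 0.699 in 2iLIF and 2.48 ± 0.104 in ES, and Zeb1 at 5.42 ± 0.495, 5.39 ± 0.379 and 3.04 ± 0.258 FPKM in the same media, and neither was called. Twist1 was called higher in EPSCM against ES (1.13 ± 0.10) and against 2iLIF (1.31 ± 0.10), and quantile normalization ended both calls (0.95 and 0.97). Snai3 was called lower in 2iLIF against ES (-1.32 ± 0.07), and after quantile normalization it was also called lower in EPSCM against ES (-1.09). With a pseudocount of 0.1 Snai3 was called lower in EPSCM against ES (-1.63) and higher in EPSCM against 2iLIF (1.68). Twist1 was tested through its EPSCM libraries alone and Snai3 through its ES libraries alone, so these calls are a description. Snai3 was at 0.485 ± 0.0565 FPKM in EPSCM, 0.0823 ± 0.0187 in 2iLIF and 1.71 ± 0.256 in ES.

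On the inner side of integrins, 21 of 26 listed adhesion proteins were tested, and most were not called. In EPSCM against ES 4 fell and none rose, beside 7.97% lower and 11.7% higher among all tested genes. In EPSCM against 2iLIF 1 rose, beside 10.1% higher, and in 2iLIF against ES 2 fell, beside 7.12% lower. With a pseudocount of 0.1 Parva, or alpha-parvin, was called higher in EPSCM against ES (1.12) and against 2iLIF (1.16), and Tns2, or tensin 2, against 2iLIF (1.23), which made 1 and 3 higher. With genes of a mean of at least 5 FPKM, 2 fell in EPSCM against ES and none was called in the other comparisons. Lims2, or PINCH2, a partner of integrin-linked kinase, was at 2.59 ± 0.552 FPKM in EPSCM, 0.428 ± 0.0755 in 2iLIF and 10.1 ± 1.47 in ES. It fell in EPSCM against ES (-1.63 ± 0.13) and in 2iLIF against ES (-2.95 ± 0.13), and its rise in EPSCM against 2iLIF (1.32 ± 0.13) was lost after quantile normalization (0.98). The close relative Lims1 was at 19.5 ± 0.486 FPKM in EPSCM, 18.1 ± 0.0571 in 2iLIF and 9.96 ± 0.872 in ES, and was not called. Ptk2b, or PYK2, the relative of focal adhesion kinase, fell in EPSCM against ES (-1.46 ± 0.07) and in 2iLIF against ES (-1.59 ± 0.07). Tns3, or tensin 3, fell in EPSCM against ES (-1.66 ± 0.06). The fall of Actn4, an actin crosslinker, in EPSCM against ES (-1.001 ± 0.12) was at the limit and was lost under 6 other settings, among them the fits without EPSCM replicate 1 (-0.95), without EPSCM replicate 3 (-0.95) and without ES replicate 1 (-0.91).

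The matrix proteins that integrins bind had 7 of 13 tested genes higher and none lower in EPSCM against ES. Among all tested genes 11.7% were higher and 7.97% lower. The median difference of the ligands was 1.23, beside 0.09 over all tested genes. Npnt (nephronectin), among these 7, met the filter only with its EPSCM libraries, so its part in this count and median is a description. After quantile normalization 1 ligand, Tgfb1, was called lower in EPSCM against ES (-1.09), as it was with a pseudocount of 0.1 (-1.01). Fn1, or fibronectin, the ligand of the receptor made of Itga5 and Itgb1, was at 435 ± 20.8 FPKM in EPSCM, 301 ± 9.89 in 2iLIF and 119 ± 4.08 in ES. It rose in EPSCM against ES (1.86 ± 0.06) and in 2iLIF against ES (1.33 ± 0.06). Mfge8, a ligand of receptors with Itgav, was at 348 ± 40.3 FPKM in EPSCM, 92.3 ± 8.72 in 2iLIF and 62.3 ± 5.62 in ES, and rose in EPSCM against ES (2.46 ± 0.10) and against 2iLIF (1.90 ± 0.10). Col4a1 and Col4a2, the basement membrane collagen chains, rose in EPSCM against ES (2.05 ± 0.06 and 2.01 ± 0.07) and against 2iLIF (2.71 ± 0.06 and 2.36 ± 0.07). Vtn, or vitronectin, was near 0 in all media, at 0.0131 ± 0.0227 FPKM in EPSCM, 0.0210 ± 0.0226 in 2iLIF and 0.0366 ± 0.0269 in ES.

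EPSCM against 2iLIF had 4 of 13 ligands higher and none lower, beside 10.1% and 5.91% of all tested genes. The median difference there was 0.37, beside 0.03 over all tested genes. 2iLIF against ES had 4 ligands higher and 1 lower, beside 7.62% and 7.12%, with a median difference of 0.39 beside 0.03. Npnt, or nephronectin, reached 3.83 ± 0.387 FPKM in EPSCM, against 0.576 ± 0.0323 in 2iLIF and 0.861 ± 0.196 in ES. It was the other ligand called higher in both EPSCM comparisons (1.61 ± 0.09 against 2iLIF and 1.38 ± 0.09 against ES). Npnt met the filter only with its EPSCM libraries, since outside EPSCM only ES replicate 3 reached 1 FPKM (1.01). Its calls, and its place in the counts of higher ligands and in the median differences of both EPSCM comparisons, are thus a description. Spp1, or osteopontin, a ligand of receptors with Itgav or Itga9, was at 319 ± 24.8 FPKM in EPSCM, 556 ± 49.2 in 2iLIF and 209 ± 15.3 in ES, and rose in 2iLIF against ES (1.41 ± 0.09). Nid1, or nidogen, rose in 2iLIF against ES (1.83 ± 0.05) and in EPSCM against ES (1.23 ± 0.05). The call of Lamb2, a laminin chain, in 2iLIF against ES (1.06 ± 0.08) was lost after quantile normalization (0.93). The ligand that fell in 2iLIF against ES was Tgfb1 (-1.06 ± 0.10), which is bound in its latent form by receptors with Itgav. Lamb1, a laminin chain, was just short of the limit there (-0.999 ± 0.09). It was called lower without 2iLIF replicate 1 (-1.06), without ES replicate 2 (-1.01) or without ES replicate 3 (-1.02). Other settings that gave this call were a pseudocount of 0.1 (-1.06), quantile normalization (-1.06) and libraries scaled to the same median ratio (-1.02). So did leaving out the 3 libraries that stand apart (-1.02), and weighting the libraries (-1.03).

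**Figure D5:**
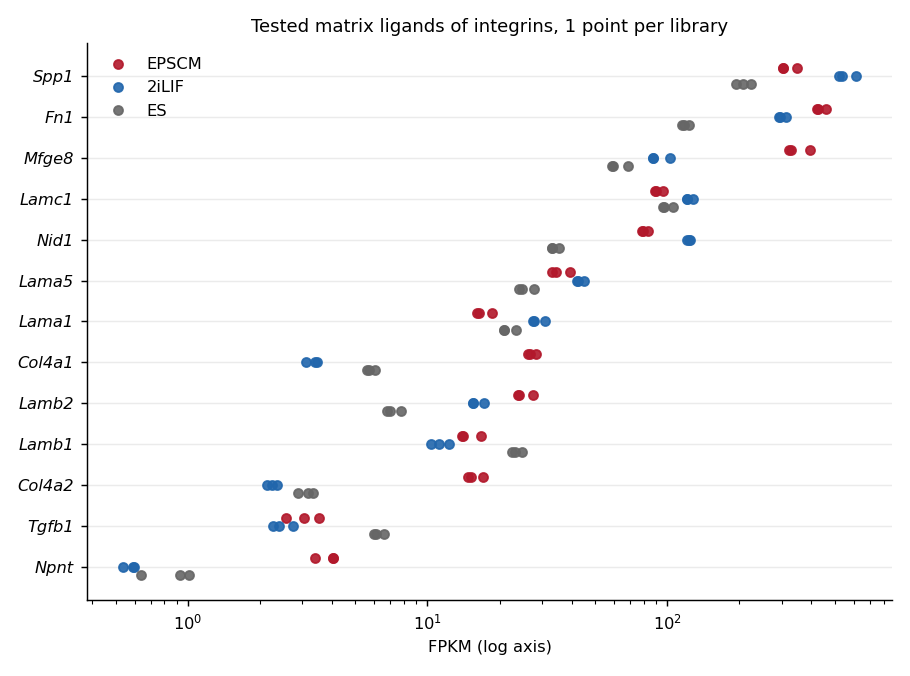
FPKM of the 13 tested matrix ligands of integrins on a log axis, 1 point per library, in EPSCM, 2iLIF and ES. The EPSCM points of Fn1, Mfge8, Col4a1, Col4a2, Lamb2 and Npnt lie above all other points of their gene, and the 2iLIF points do so for Spp1, Nid1, Lamc1, Lama5 and Lama1.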

How the data were processed

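Polyadenylated RNA of 9 libraries, 3 per medium, was measured as FPKM. The authors deposited 1 FPKM value per gene symbol and library, for which the submitters' processing notes name STAR, Cuffnorm and mm9. The library kit was stranded, per the labels' protocols; which annotation, scaling and strand setting the authors used is not stated there. As FPKM is relative to the library total, a large change in abundant genes moves the rest.

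Groups come from the culture condition in the labels, and replicates are numbered in accession order. Genes reaching 1 FPKM in 3 or more libraries were analysed as log2(FPKM + 1). A limma 3.58.1 model (R 4.3.3) with a mean for each medium and trended moderation of the variance was fitted over all of them, with Benjamini-Hochberg adjustment. The fit was tested on simulated data. Alternatives were other pseudocounts, filters, scalings, covariates and left-out libraries. The members, the gene lists and the tests were chosen with earlier results of these data known. Values in each library were to be given for members that were called and whose mean reached 1 FPKM in a medium or whose mean reached 10 FPKM, and from each list up to 4 called genes per comparison with the largest difference, beside Ctnnb1, Ctnna1, Ctnnd1, Fn1, Vtn, Snai1 and Zeb1; others were chosen after their values were seen.

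Depth was estimated from the steps of low values over 6842 genes that have only 1 transcript, 1500 to 8000 bases long, in the GENCODE annotation. The libraries of a medium differed by more than counting noise, with a chi-square per degree of freedom of at least 1.68, where counting noise alone gives about 1. Overlaps and neighbours of genes were looked up by symbol in GRCm38 annotations, which differ from mm9, so they serve for names only.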

Additional observations from a re-analysis of the deposited data

How the results depend on the processing

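No paired analysis was possible because the labels give the libraries of different media no shared numbers. The libraries that stand apart carry the highest number of their medium in the labels (19 in EPSCM, 18 in 2iLIF and 16 in ES), and what the numbers stand for is not stated there. With these 3 as a covariate, 1441 genes were higher and 988 lower in EPSCM against ES, beside 1440 and 983. Over 22 alternatives, 186 of 195 recomputed counts of called genes stayed within 1.5 times. With genes of a mean of at least 5 FPKM, which tests fewer genes, 1532 genes were called in EPSCM against ES in place of 2423, 1025 in EPSCM against 2iLIF in place of 1979 and 1055 in 2iLIF against ES in place of 1817. This filter tested 8 members among 8478 genes. Of these 8 members, 1 was higher and 1 lower in EPSCM against ES, beside 832 genes higher and 700 lower. In EPSCM against 2iLIF 1 member was higher, beside 544 genes. In 2iLIF against ES 1 was lower, and Itgav and Cdh1 stayed higher, beside 454 genes lower and 601 higher. With a pseudocount of 0.1, which weighs low genes more, 2738 genes were called in 2iLIF against ES. In EPSCM against 2iLIF 6 of 16 members were then higher, beside 1774 of 12330 tested genes. Cdh22 and Itga7, among these 6, were tested through EPSCM libraries alone, so their place in that count is a description. Leaving out any 1 library, or the 3 that stand apart, kept every count of called members within that range. Of 984 single values of tested members, 970 kept their call. These kept their direction too, except where a value that was not called changed sign within the spread. Of the others, 7 passed the limit newly, 4 no longer reached it, and 3 that were never called moved by more than the spread. No called value changed sign. Averaging the close libraries of a medium, and all fits of the adhesion gene lists under other settings, were chosen after seeing the data. Below about 0.1 FPKM a value is only a few fragments.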

Other observations

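Rarg, a retinoic acid receptor that lies next to Itgb7 on chromosome 15, had 23.9 ± 1.73 FPKM in EPSCM, 15.3 ± 1.13 in 2iLIF and 68.7 ± 5.46 in ES (SD, n = 3 each), the same order of media as Itgb7. Zfp740, on the other side of Itgb7, had 38.4 ± 1.42 FPKM in EPSCM, 39.2 ± 2.01 in 2iLIF and 59.7 ± 1.99 in ES. The neighbours of Itga9 did not share its order: Golga4 had 32.4 ± 0.617 FPKM in EPSCM, 22.6 ± 0.258 in 2iLIF and 14.1 ± 0.592 in ES, and Ctdspl had 4.64 ± 0.127 FPKM in EPSCM, 0.587 ± 0.0821 in 2iLIF and 1.45 ± 0.123 in ES. These genes were chosen for their position after the values were seen, and what neighbouring genes share was not tested.

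Markers of 2 embryonic cell types that a culture could hold were read beside the members. The 7 primitive endoderm markers summed to 9.77 to 10.5 FPKM in EPSCM, 2.99 to 3.38 in 2iLIF and 5.76 to 6.45 in ES. These sums join genes of opposite direction: in EPSCM against ES Gata6 (1.32 ± 0.06) and Gata4 (1.21 ± 0.10) were called higher and Sox7 (-1.88 ± 0.05) lower, with Sox7 at 0.0315 ± 0.0315 FPKM in EPSCM, 0.0422 ± 0.0146 in 2iLIF and 2.79 ± 0.116 in ES. Gata6 was tested through EPSCM libraries alone and Sox7 through ES libraries alone. The 8 trophoblast markers summed to 52.8 to 62.8 FPKM in EPSCM, 76.5 to 88.1 in 2iLIF and 29.5 to 34.0 in ES, led by Krt8 in 2iLIF at 47.6 ± 3.999 FPKM. These sums too join genes of opposite direction. In EPSCM against 2iLIF Krt8 (-2.77 ± 0.10) and Cdx2 (-1.89 ± 0.05) were called lower. Tfap2c (0.75 ± 0.09), Krt18 (0.59 ± 0.13) and Eomes (0.33 ± 0.07) were higher there, short of the fold limit. Cdx2 was tested through 2iLIF libraries alone. The part of such cells in the member values was not tested.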
